A study of Drosophila melanogaster and Drosophila simulans with 11 samples.

Results

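MSL1 and MSL2 binding were compared position by position in larval salivary glands of *Drosophila simulans*, in 2 of the 8 ChIP-seq libraries of the series that have a processed file. Members were chosen as follows. A position entered when both libraries had a deposited log2 ratio of ChIP to input there, values were averaged in bins of 1 kb, and a bin was kept with 25 or more shared values out of a possible 100. This left 59428 of the 109688 bins that span X, 2L, 2R, 3L, 3R and chromosome 4 of release 1 of the *D. simulans* reference.

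Both libraries came from the wild type strain w[501], from salivary glands of larvae in the third instar, reared at 25 °C on potato mash, with 125 glands per sample. The MSL1 library was made with 3 µl of anti-MSL1 serum and the MSL2 library with 2 µl of anti-MSL2 serum, both were sequenced on the SOLiD platform, and 1 input library served as the denominator of both. The labels do not name the sex of the *D. simulans* larvae, and the study describes the MSL1 profile as one of males. The other libraries set beside the pair are *D. simulans* MOF, made with 3 µl of anti-MOF from the same strain and input, and MSL1 and MSL2 from *D. melanogaster* larvae that lack both *roX* RNAs. Those larvae were males with the allele roX1[ex6] and the deficiency Df(1)roX2[52] on a y w chromosome, which also carried the transgene P[w+ 4Δ4.3] to supply essential genes that the deficiency removes, and had an input of their own. There was 1 library per antibody, so nothing below has a replicate check, no test across samples was possible, and every value describes these libraries. As the files hold ratios without counts, the depth behind a value was unknown and its counting error has no interval.

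The MSL complex binds along the male X-chromosome of fruit flies and is known for raising its transcription, which compensates for the single X of males. In *D. melanogaster*, MSL1 is the scaffold on which the complex assembles, MSL2 is a RING finger protein that is made in males and binds MSL1, MOF acetylates histone H4 at lysine 16, and the *roX* RNAs are non-coding components. It is known for its concentration on the bodies of transcribed X-linked genes. Salivary gland nuclei carry polytene chromosomes, in which sequences next to the centromeres are under-replicated.

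Both proteins were enriched on X, and the MSL1 ratio stood further above the autosomes than the MSL2 ratio did. Over the 1600 X bins the median deposited log2 ratio was 0.88 in MSL1 and 0.35 in MSL2, against 0.12 in MSL1 and 0.029 in MSL2 over the 52411 bins of the autosomal arms. The arms are 2L, 2R, 3L and 3R without the 2 Mb next to the centromere. X therefore lay 0.75 above the arms in MSL1 and 0.32 above the arms in MSL2, and the median of MSL1 minus MSL2 lay 0.46 higher on X than on the arms. Expressed in the spread of each library over the arm bins, X stood 3.10 SD above the arms in MSL1 and 1.73 SD above the arms in MSL2. As both ratios were taken over 1 input, their difference is free of that input if they are plain log2 quotients, but the formula and the scaling of ChIP to input were not given in the sources used here.

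**Figure D1:**
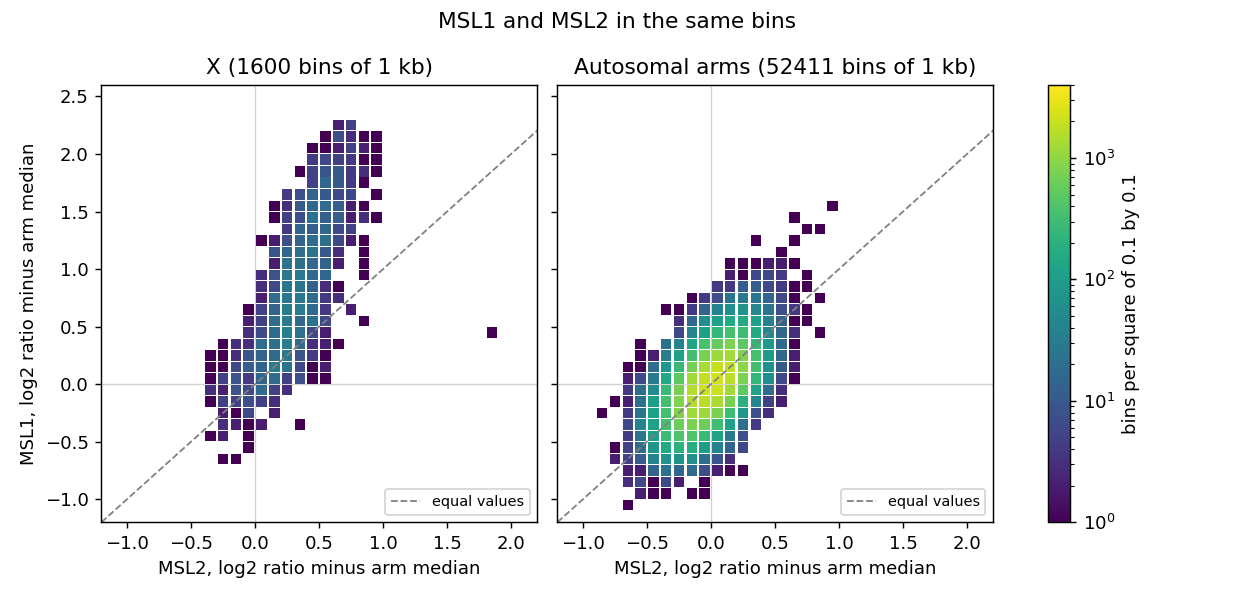
Counts of 1 kb bins by their MSL2 value (horizontal axis) and MSL1 value (vertical axis), both log2 ratios of ChIP to input minus the median of that library over the autosomal arms, for the 1600 bins of X (left) and the 52411 bins of the autosomal arms (right). Colour gives the bins per square of 0.1 by 0.1 on a log scale, the dashed line marks equal values, and most X bins lie above it while the arm bins lie around the origin. The single X square far to the right belongs to a bin with an MSL2 value of 1.89 and an MSL1 value of 0.46.

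From here on each library is centred on its own median over the autosomal arms, so that 0 is the level of the arms. MSL1 exceeded MSL2 by 0.5 or more in 751 of the 1600 X bins (46.9%). Over all bins of the genome 1436 of 59428 did so, a background of 2.42%. On the arms the count was 642 bins (1.23%) and on chromosome 4 it was 16 of 702 bins (2.28%). X held 2.69% of the bins and 52.3% of those in which MSL1 was higher by this measure. A difference of 1 or more was found in 224 X bins (14.0%) and in 1 bin of the arms.

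The opposite difference was rare on X. MSL1 lay 0.5 or more below MSL2 in 3 X bins (0.188%), where the background over all bins was 426 of 59428 or 0.717%, and in 378 arm bins (0.721%) and no bin of chromosome 4. All 3 X bins lay in the last 2 Mb before the centromere. In the first, X:16613001-16614000, MSL1 was at 0.46 and MSL2 at 1.89. In the second, X:16615001-16616000, MSL1 was at -0.36 and MSL2 at 0.38, and in the third, X:16642001-16643000, MSL1 was at -0.66 and MSL2 at -0.11.

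The bins of X that could be compared were a small and uneven sample of the chromosome. The MSL1 file held a value at 18.2% of the X positions and the MSL2 file at 7.93%, and both did at 6.04%, against 48.1%, 46.9% and 36.4% over the 4 autosomal arms with their centromere ends. Only 9.39% of the X bins passed the minimum, against 62.6% of the arm bins and 73.9% of the bins of chromosome 4. Of the MSL2 positions on X, 76.1% also had an MSL1 value, close to the 77.6% on the autosomal arms. Of the MSL1 positions on X, only 33.1% also had an MSL2 value, against 75.7% on the autosomal arms.

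Whether MSL2 had a value on X went with the level of MSL1. At X positions with an MSL1 log2 ratio from 0 to 0.5, 19.4% had an MSL2 value, and the share was 30.6% from 0.5 to 1, 56.4% from 1 to 1.5, 76.3% from 1.5 to 2 and 87.8% at 2 or more. Below an MSL1 ratio of 0 it was 61.0%. On the autosomal arms the share stayed between 70.7% and 82.8% over the 5 classes up to a ratio of 2. X positions of the MSL1 file had a median ratio of 0.83 where MSL2 was also present and 0.43 where it was not, whereas on the autosomal arms the medians were 0.12 where both were present and 0.21 where MSL1 stood alone. X positions of the MSL2 file had a median of 0.33 with MSL1 and 0.23 without it.

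**Figure D2:**
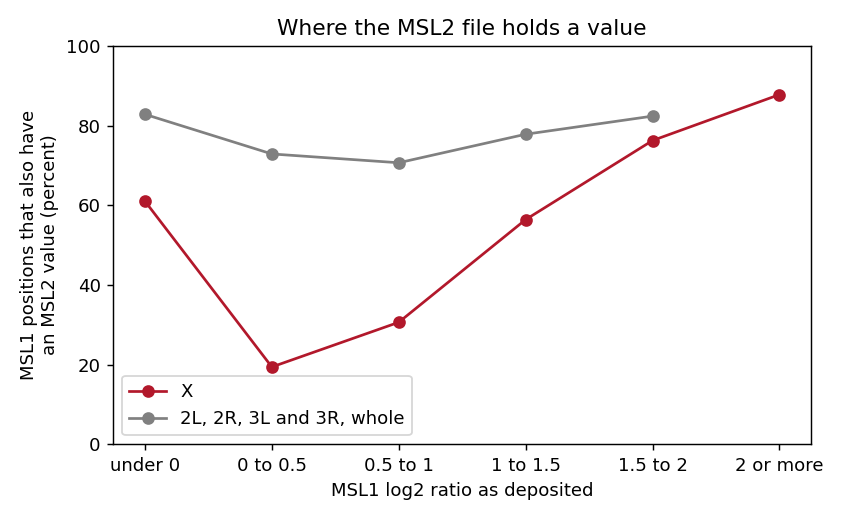
Share of the MSL1 positions that also held an MSL2 value (vertical axis, percent), by the deposited MSL1 log2 ratio (horizontal axis), on X (red) and on 2L, 2R, 3L and 3R with their centromere ends (grey), for classes of 100 or more positions. On X the share is lowest, at 19.4%, for ratios from 0 to 0.5 and reaches 87.8% at 2 or more, while on the autosomal arms it stays between 70.7% and 82.8%.

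The size of the excess of MSL1 over MSL2 on X depended on which positions entered. When every position of each file was used by itself, a setting chosen after seeing these shares, X lay 0.35 above the arms in MSL1 and 0.25 above the arms in MSL2, a gap of 0.096. Over single shared positions without bins, also chosen after seeing the data, the gap was 0.41. It was 0.28 when bins needed only 10 shared values and 0.66 when they needed 50. The direction was the same in each of these settings.

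Where both were measured, MSL1 and MSL2 ranked the X bins alike. Pearson's r was 0.74 and Spearman's rho 0.75 over the 1600 X bins, and r was 0.55 and rho 0.53 over the arms. Within single arms r was highest on 2L (0.59) and lowest on 3L (0.52), with 0.55 on both 2R and 3R. It was 0.62 over the 702 bins of chromosome 4 and 0.58 over the 4715 bins of the autosomal centromere ends. These correlations are over bins of 1 pair of libraries with a common input, and bins are not replicates.

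MSL1 covered a wider range than MSL2 on X. The SD of the X bins was 0.58 in MSL1 and 0.23 in MSL2, a ratio of 2.55, and on the arms it was 0.24 in MSL1 and 0.18 in MSL2, a ratio of 1.33. The major axis through the bins, a line that treats both libraries alike, had a slope of 3.21 units of MSL1 per unit of MSL2 on X and of 1.66 on the arms. The 1st to 99th percentile of X ran from -0.16 to 2.25 in MSL1 and from -0.21 to 0.87 in MSL2 on the deposited scale.

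Within classes of MSL2, X bins carried more MSL1 than arm bins. Among bins with MSL2 between 0.25 and 0.5 above the arm median, the median of MSL1 was 0.86 over 698 bins of X and 0.21 over 3888 bins of the arms. Between 0.5 and 1 it was 1.49 over 324 bins of X and 0.45 over 134 bins of the arms. Within classes of MSL1, MSL2 was also higher on X, but the classes were not matched inside their bounds. Where MSL1 was between 0.5 and 1, the median of MSL2 was 0.31 over 486 bins of X and 0.22 over 1095 bins of the arms, and where it was between 0.25 and 0.5, MSL2 was at 0.22 over 225 bins of X and 0.13 over 6106 bins of the arms. The median of MSL1 itself was 0.74 on X and 0.58 on the arms in the class from 0.5 to 1, and 0.38 on X and 0.33 on the arms in the class from 0.25 to 0.5. In the MSL2 classes the median of MSL2 was 0.35 on X and 0.31 on the arms from 0.25 to 0.5, and 0.59 on X and 0.54 on the arms from 0.5 to 1. All 350 X bins with MSL1 between 1 and 1.5 and all 229 with MSL1 at 1.5 or more had MSL2 above the arm median, with medians of 0.43 and 0.58.

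At the low end, the other protein was higher on X than on the arms whichever protein set the class. In bins with MSL1 between -0.25 and 0, the median of MSL2 was -0.025 over 76 bins of X and -0.044 over 18246 bins of the arms. MSL2 was above the arm median in 44.7% of those on X and 38.7% of those on the arms. In bins with MSL1 under -0.25, MSL2 had a median of -0.11 over 21 bins of X and -0.17 over 7959 bins of the arms. Among bins with MSL2 between -0.25 and 0, the median of MSL1 was 0.054 over 108 bins of X and -0.076 over 21315 bins of the arms. MSL1 was above the arm median in 55.6% of those on X and 35.2% of those on the arms. The gap between X and the arms was wider in this MSL2 class than in the MSL1 classes. These classes too were not matched inside their bounds. From -0.25 to 0 the median of MSL1 itself was -0.086 on X and -0.11 on the arms. Under -0.25 it was -0.33 on X and -0.35 on the arms. In the MSL2 class the median of MSL2 was -0.099 on X and -0.10 on the arms. The part of this mismatch in the MSL2 gaps was not tested.

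MSL1 and MSL2 in neighbouring bins were more strongly correlated on X than on the arms up to 20 kb. At 50 kb X was below the arms, and at 100 kb it was above them again, with few bin pairs on X at both distances. Between X bins 1 kb apart, MSL1 in one bin correlated with MSL2 in the other at r = 0.64, as high as MSL2 with itself (0.64) and below MSL1 with itself (0.83). The cross-correlation was 0.49 at 2 kb, 0.31 at 5 kb and 0.24 at 20 kb, and 0.013 at 50 kb. At 100 kb it was 0.0895 on X and 0.050 on the arms. On the arms it was 0.55 within a bin and 0.17 at 1 kb, where MSL1 with itself gave 0.41 and MSL2 with itself 0.30. At 20 kb on the arms each library still correlated with itself more than with the other, with 0.25 for MSL1, 0.14 for MSL2 and 0.10 between them. The cross-correlation on the arms was low but changed little with distance, between 0.10 and 0.12 from 2 to 20 kb and at 0.074 over 38121 pairs at 50 kb, above the 0.013 of X. On chromosome 4 the cross-correlation was 0.14 at 1 kb and -0.0065 at 2 kb. The number of bin pairs on X fell off with distance, to 290 at 20 kb, 172 at 50 kb and 181 at 100 kb.

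**Figure D3:**
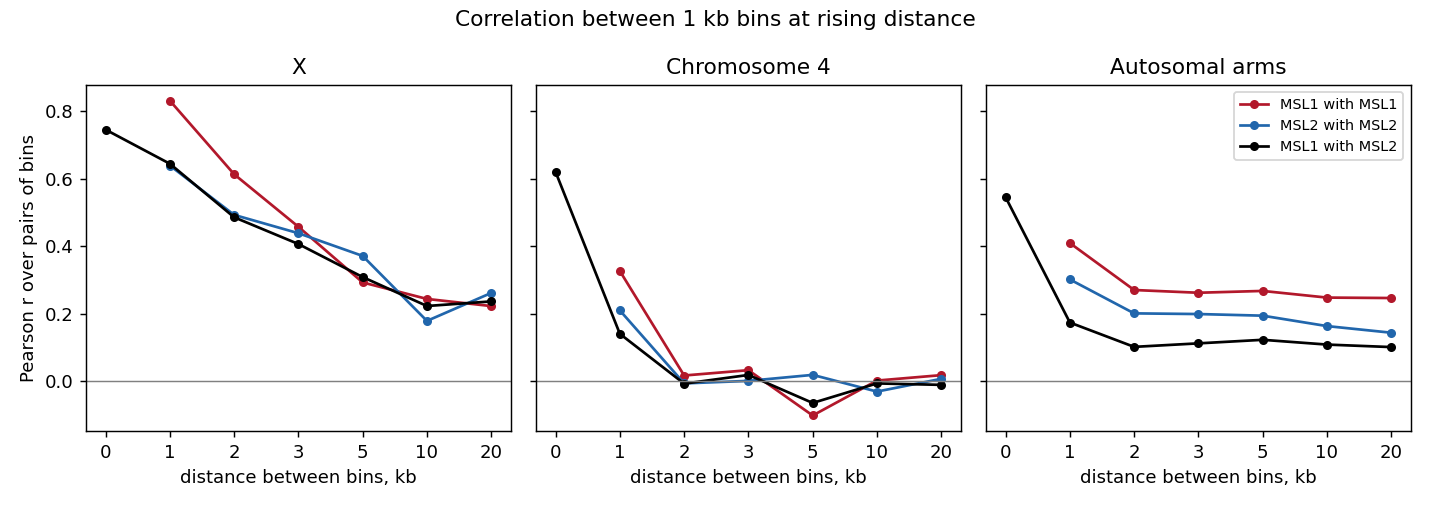
Pearson's r between 1 kb bins (vertical axis) by the distance between them in kb (horizontal axis, unevenly spaced classes), for X, chromosome 4 and the autosomal arms, within MSL1 (red), within MSL2 (blue) and between MSL1 and MSL2 (black). On X the black line is at 0.64 at 1 kb, level with MSL2 (0.64) and below MSL1 (0.83). At 20 kb it is at 0.24, between MSL1 (0.22) and MSL2 (0.26). On the arms it drops to 0.17 at 1 kb, below both MSL1 (0.41) and MSL2 (0.30).

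The median of MSL1 minus MSL2 was positive in each of the 17 steps of 1 Mb along X that held 10 or more bins. The steps ranged from 0.27 to 1.08 in MSL1 and from 0.14 to 0.41 in MSL2, with differences of 0.099 to 0.67 and correlations of 0.58 to 0.91. MSL1 and MSL2 were both highest in the step X:4000001-5000000, at 1.08 in MSL1 and 0.41 in MSL2. MSL1 was lowest in X:11000001-12000000, with 0.27 in MSL1 and 0.19 in MSL2 over 48 bins, and MSL2 was lowest in X:3000001-4000000, with 0.36 in MSL1 and 0.14 in MSL2. For scale, the 93 steps of the 4 autosomal arms, centromere ends included, ranged from -0.24 to 0.17 in MSL1, from -0.13 to 0.13 in MSL2 and from -0.21 to 0.16 in the difference.

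Windows of 10 kb with 5 or more bins locate the extremes. Of 129 such windows on X, the difference was highest in X:6210001-6220000, where MSL1 was at 1.61 and MSL2 at 0.48 over 5 bins, and all 5 bins differed by 0.84 to 1.32. The next were X:16390001-16400000 (difference 1.09), X:14500001-14510000 (1.07), X:13990001-14000000 (1.05) and X:2860001-2870000 (1.03). In these 5 windows MSL1 was between 1.43 and 1.61 and MSL2 between 0.35 and 0.54, so both proteins were above the arms in each.

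At the other end, the windows with the lowest difference were of different kinds. In X:11930001-11940000, with all 10 bins valid, both proteins averaged below the level of the arms, with MSL1 at -0.14 and MSL2 at -0.061. The adjacent X:11940001-11950000 had MSL1 at 0.070 and MSL2 at 0.074. In X:15890001-15900000 MSL1 was at 0.00096 and MSL2 at -0.027. In X:12140001-12150000, by contrast, MSL1 was at 0.32 and MSL2 at 0.33, and in X:7990001-8000000 MSL1 was at 0.44 and MSL2 at 0.42, so that both stood above the arms by about the same amount.

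Bound regions were called in each library by itself as runs among the highest 1.5 percent of its medians over 500 bp. The cutoff was a log2 ratio of 1.00 in MSL1 and 0.51 in MSL2. MSL1 had 743 regions, of which 461 lay on X with 85.7% of the bound length. MSL2 had 1576 regions, of which 372 lay on X with 36.0% of the bound length and 1106 on the arms. Of the positions with a value, 310727 of 4781018 lay on X in MSL1 and 135115 of 4486439 in MSL2. As a fixed share of each library is taken, a library with lower or fewer values on X draws more regions from the arms. Whether the arm regions reflect binding was not tested. The regions on X were longer and higher than those on the arms in both libraries, with median lengths of 990 bp on X and 380 bp on the arms in MSL1, and 515 bp on X and 370 bp on the arms in MSL2. The median region value, the highest stretch of smoothed log2 ratio in a region, was 1.38 on X and 1.09 on the arms in MSL1, and 0.66 on X and 0.58 on the arms in MSL2.

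The share of regions on X that overlapped a region of the other protein was larger for MSL2 than for MSL1. MSL1 regions on X spanned 690770 bp and MSL2 regions 264380 bp, which by itself favours overlap of MSL2 regions. The overlap expected from these lengths was not computed. Of the 461 MSL1 regions 222 (48.2%) overlapped an MSL2 region, and of the 372 MSL2 regions 290 (78.0%) overlapped an MSL1 region. These shares depend on the calling: with cutoffs from the values on X alone 27.6% of 58 MSL1 regions and 48.4% of 31 MSL2 regions overlapped, and with overlap of 50 percent of a region required, 21.7% of the MSL1 and 76.9% of the MSL2 regions did. On the arms 85 of 259 MSL1 regions (32.8%) and 86 of 1106 MSL2 regions (7.78%) overlapped. MSL1 regions on X that overlapped had a median region value of 1.76, against 1.19 for those that did not. The 50 highest MSL1 regions on X all overlapped an MSL2 region, as did 94 of the 100 highest, and 93 of the 100 highest MSL2 regions on X overlapped an MSL1 region.

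Absence of an MSL2 region did not mean absence of MSL2 signal. The MSL2 file gave a smoothed value within 388 of the 461 MSL1 regions on X, and the other 73 held no smoothed MSL2 value from which a region could be called. In the 410 MSL1 regions on X with 10 or more shared values, the median was 1.18 in MSL1 and 0.44 in MSL2, and MSL2 was above the arm median in 409. In the 366 MSL2 regions on X with 10 or more shared values, the median was 1.37 in MSL1 and 0.59 in MSL2, and MSL1 was above the arm median in all 366. On the arms, the 999 MSL2 regions with 10 or more shared values had a median of 0.37 in MSL1 and 0.55 in MSL2, the reverse of the order on X, and MSL1 was above the arm median in 943 of them. Each list was chosen for high values in its own library, which alone raises that library there. Most X bins stood above the arm median in any case. Over all X bins the lower quartile of the deposited ratio was 0.48 in MSL1 and 0.22 in MSL2. The arm medians on that scale were 0.12 in MSL1 and 0.029 in MSL2. The shares above the arm median in X regions are thus to be read against a high level on X as a whole.

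Signal dropped off from region centres at different rates on X and on the arms. Within 250 bp of the centres of MSL1 regions on X, the median was 1.33 in MSL1 and 0.49 in MSL2. At 5 to 10 kb it was 0.76 in MSL1 and 0.32 in MSL2. That is about the level of X as a whole, where the median over all X bins was 0.75 in MSL1 and 0.32 in MSL2. Around MSL1 regions on the arms the values were 0.94 in MSL1 and 0.40 in MSL2 within 250 bp, and 0.15 in MSL1 and -0.0049 in MSL2 already at 500 to 1000 bp. Around MSL2 regions on X, MSL1 was at 1.37 and MSL2 at 0.61 within 250 bp, and MSL1 at 0.73 and MSL2 at 0.30 at 5 to 10 kb. Around MSL2 regions on the arms, MSL1 was at 0.35 and MSL2 at 0.53 within 250 bp, and both were under 0.07 from 500 bp on, so that arm regions of either protein were narrow and had the other protein at their centre at a lower level.

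**Figure D4:**
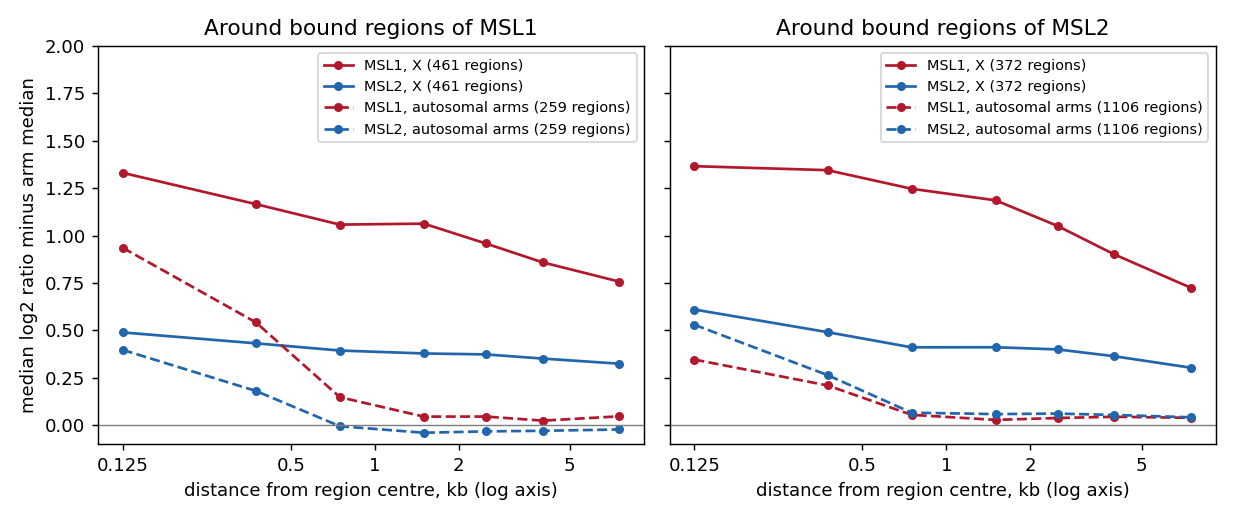
Median of MSL1 (red) and MSL2 (blue), as log2 ratio minus the arm median (vertical axis), by distance from the centre of bound regions in kb (horizontal axis, log scale), around regions called in MSL1 (left) and in MSL2 (right), on X (solid) and on the autosomal arms (dashed). In the last class around MSL1 regions on X, MSL1 is at 0.76 and MSL2 at 0.32. The medians over all X bins are about the same, at 0.75 in MSL1 and 0.32 in MSL2. On the arms both are near 0 beyond 1 kb.

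The 5 highest MSL1 regions on X had both proteins above the level of the arms at the positions both files report. The highest, X:5764410-5768250, had a region value of 2.71, and over its 326 shared positions the mean was 1.82 in MSL1 and 0.61 in MSL2. In the 5 kb on either side the means were 0.65 in MSL1 and 0.34 in MSL2. The other 4 were X:1246630-1249870, X:4836090-4842070, X:14750400-14755510 and X:1581970-1585370, with MSL1 means of 1.82 to 1.87 and MSL2 means of 0.54 to 0.74. Each of the 5 overlapped an MSL2 region, and those ranked 48, 5, 3, 68 and 23 among the MSL2 regions on X.

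The 2 highest MSL2 regions on X had no MSL1 region. The first, X:16612780-16614130, had an MSL2 region value of 2.10. Over its 110 shared positions the mean was 0.40 in MSL1 and 1.79 in MSL2, and MOF, at 84 positions, had a mean of 0.072. In the 5 kb on either side, over 74 shared positions, MSL1 was at -0.35 and MSL2 at 0.38. The second, X:16632840-16633080, lay within 20 kb of the first and had a value of 1.89. It had only 6 shared positions, at which MSL1 averaged 0.25 and MSL2 1.94. MOF had no value there. Only 6 of the 25 positions of this second region had an MSL1 value, so the lack of an MSL1 region there says little. Its surroundings differed from those of the first. In the 5 kb on either side, over 60 shared positions, MSL1 was at 1.23 and MSL2 at 0.73.

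The next MSL2 regions in rank carried both proteins. X:4836520-4841670, which lies within the MSL1 region of rank 3, had means of 1.90 in MSL1, 0.76 in MSL2 and 0.99 in MOF. X:1247580-1249850, within the MSL1 region of rank 2, had 2.10 in MSL1, 0.78 in MSL2 and 1.03 in MOF. X:8343770-8344880 had 1.14 in MSL1, 0.89 in MSL2 and 0.44 in MOF, and overlapped the MSL1 region of rank 221. No gene could be assigned to these regions, as no annotation of release 1 was used here.

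The centromere end of X had less of both proteins than the rest of X. Over its 175 bins MSL1 was at 0.41 and MSL2 at 0.20, against 0.79 in MSL1 and 0.33 in MSL2 over the other 1425 bins. The end minus the rest of X was -0.38 in MSL1, -0.13 in MSL2 and -0.19 in MSL1 minus MSL2. The end was not even. In steps of 250 kb from the end of the sequence, MSL1 was at 0.99 and MSL2 at 0.31 from 500 to 750 kb, and MSL1 at 0.076 and MSL2 at 0.073 from 750 to 1000 kb, with 30 and 22 bins.

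**Figure D5:**
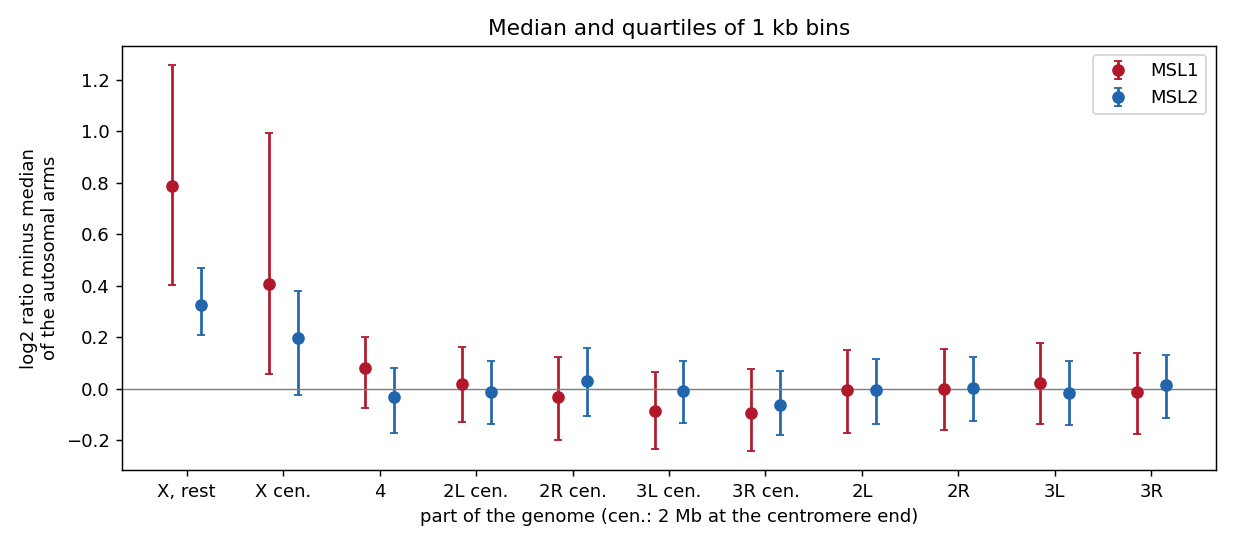
Median (point) and quartiles (bars) over 1 kb bins of MSL1 (red) and MSL2 (blue), as log2 ratio minus the median of that library over the autosomal arms (vertical axis), for X, chromosome 4, the 2 Mb at the centromere ends and the arms (horizontal axis). X without its end lies at 0.79 in MSL1 and 0.33 in MSL2, and on chromosome 4 MSL1 lies at 0.083 and MSL2 at -0.033.

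On chromosome 4, MSL1 lay slightly above the arms and MSL2 slightly below. Over 702 bins MSL1 was 0.083 above the arms and MSL2 was at -0.033, and the median difference was 0.11 higher than on the arms. MSL1 exceeded MSL2 in 73.5% of these bins, against 87.9% of the X bins and 49.4% of the arm bins. In all 10 steps of 100 kb the difference was positive, from 0.057 to 0.17, MSL1 was above 0 in 10 and MSL2 in 2. Among the 93 steps of 1 Mb on the autosomal arms, 9 had a difference as high as that of chromosome 4 as a whole, which is about as long as 1 such step, and none reached that of X.

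Chromosome 4 is short, and its bound regions were few in number. MSL1 had 7 regions and MSL2 had 8 over a span of 950 bins of 1 kb. The arms had 259 MSL1 and 1106 MSL2 regions over 83697 bins. Per length, MSL1 regions were thus denser on chromosome 4 than on the arms, and MSL2 regions were sparser. These densities rest on few regions and are not corrected for the share of positions with a value. In MSL1 that share was 59.4% on chromosome 4 and 48.1% on the autosomal arms with their centromere ends. In MSL2 it was 50.2% on chromosome 4 and 46.9% on those arms. On chromosome 4, 3 of each overlapped, with region values of at most 1.32 in MSL1 and 0.75 in MSL2. In the windows with the highest difference, 4:210001-220000 and 4:30001-40000, MSL1 was at 0.15 and 0.28 and MSL2 at -0.16 and -0.024. In those with the lowest, 4:140001-150000 and 4:470001-480000, MSL1 was at -0.14 and -0.082 and MSL2 at 0.011 and -0.042.

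At the autosomal centromere ends both proteins had medians close to those of the arms. Over 4715 bins MSL1 was at -0.051 and MSL2 at -0.012 relative to the arms, and the difference was at -0.036. By arm, the median of MSL1 was 0.019 at the end of 2L, -0.032 at that of 2R, -0.085 at that of 3L and -0.094 at that of 3R. The median of MSL2 was -0.013 at the end of 2L, 0.032 at that of 2R, -0.0072 at that of 3L and -0.063 at that of 3R. Set against the rest of its own arm, the difference MSL1 minus MSL2 was 0.040 higher at the end of 2L, and was -0.057 at 2R, -0.11 at 3L and -0.0010 at 3R.

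The widest differences at these ends were modest and ran in both directions. MSL1 was higher in 2L:21150001-21160000, with 0.42 in MSL1 and 0.062 in MSL2, and in 2L:21340001-21350000, with 0.22 in MSL1 and -0.10 in MSL2. MSL2 was higher in 2R:1590001-1600000, with -0.18 in MSL1 and 0.14 in MSL2, and in 3R:650001-660000, with -0.31 in MSL1 and 0.0025 in MSL2.

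Among the arms, MSL1 was most often above MSL2 on 3L. Its median difference was 0.037 above that of the 4 arms together, against 0.0022 on 2L, -0.0047 on 2R and -0.026 on 3R, and 277 of its 12918 bins (2.14%) had MSL1 higher by 0.5 or more, against 0.769% to 1.17% on the other 3 arms. All 5 arm windows with the highest difference were on 3L, within 16060001 to 18120000. In the first, 3L:17990001-18000000, MSL1 was at 0.32 and MSL2 at -0.20 over 8 bins. The others were 3L:17970001-17980000, 3L:16060001-16070000, 3L:18110001-18120000 and 3L:16090001-16100000, with MSL1 between 0.27 and 0.48 and MSL2 between -0.20 and -0.018. In each of the 5 MSL2 was below the arm median, unlike in the X windows.

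In the 5 arm windows with the lowest difference, MSL1 was the low one. In 3R:19460001-19470000 MSL1 was at -0.53 and MSL2 at -0.010, and in 2R:8500001-8510000 MSL1 was at -0.36 and MSL2 at 0.16. The others were 3L:19800001-19810000, 2L:8250001-8260000 and 3R:24420001-24430000, with MSL1 between -0.41 and -0.26 and MSL2 between -0.025 and 0.15.

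MOF, the acetyltransferase of the complex, had a higher correlation with MSL1 than with MSL2. Over the 1190 X bins with 25 or more positions valued in all 3 files, r was 0.89 between MSL1 and MOF, 0.74 between MSL2 and MOF, and 0.77 between MSL1 and MSL2. X lay above the arms by 0.97 in MSL1, 0.36 in MSL2 and 0.42 in MOF in these bins. The difference MSL1 minus MSL2 correlated with MOF on X at r = 0.81, against 0.24 over 48752 arm bins. These values follow from the pairwise correlations and the SDs of the libraries, and add no separate observation. In these X bins the SD was 0.60 in MSL1 and 0.25 in MSL2, so the difference mostly followed MSL1. On the arms the 3 pairs gave 0.66 for MSL1 with MOF, 0.61 for MSL2 with MOF and 0.54 for MSL1 with MSL2, and on chromosome 4 they gave 0.74, 0.64 and 0.61 in the same order. All 3 ratios share the input, and the part of the input in these correlations was not tested.

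The same antibodies in *D. melanogaster* *roX* mutant glands are given beside this pair without matching of positions, since species, genotype, reference and input all differ. On X the *D. simulans* pair had 0.75 in MSL1 and 0.32 in MSL2 with r = 0.74, and the *roX* mutant pair 1.06 in MSL1 and 0.22 in MSL2 with r = 0.60 over 1220 bins. On chromosome 4 the *D. simulans* pair had 0.083 in MSL1 and -0.033 in MSL2 with r = 0.62. The *roX* mutant pair had 0.035 in MSL1 and -0.16 in MSL2 there, with r = 0.20 over 937 bins. The SD of MSL1 over the chromosome 4 bins was 0.69 in the *roX* mutant and 0.23 in *D. simulans*. In MSL2 it was 0.20 and 0.18 in the same order. On the arms the *roX* mutant SD was 0.32 in MSL1 and 0.26 in MSL2. The median therefore does not show how far *roX* mutant MSL1 rose in single bins of chromosome 4, which was not tested. At the autosomal centromere ends the *D. simulans* pair had -0.051 in MSL1 and -0.012 in MSL2, and the *roX* mutant pair 0.21 in MSL1 and 0.075 in MSL2 over 4527 bins. By arm, *roX* mutant MSL1 was at 0.28 at the end of 2L, 0.51 at 2R and 0.40 at 3L, but at -0.17 at 3R. On the arms r was 0.55 in the *D. simulans* pair and 0.60 in the *roX* mutant pair.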

How the data were processed

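ChIP-seq of salivary glands was performed with 1 library per antibody. With Bioscope, the authors placed uniquely mapped SOLiD reads on release 1 of the *D. simulans* genome and took the enrichment over input. They deposited 1 log2 ratio every 10 bp, where a position had one. Their scaling and the rule for positions without a value are not given in the sources used here. Arm lengths were taken from the last position of the 3 *D. simulans* files, and centromere ends are 2 Mb. Bound regions followed the procedure of the study: median over 500 bp with 25 or more values, highest 1.5 percent, joined up to 200 bp, at least 200 bp and 5 units. The region value is the highest mean of 5 successive units. Named were the 5 highest regions on X of each library and, among 10 kb windows with 5 or more bins, the 5 highest and 5 lowest differences on X and the arms and 2 of each on chromosome 4 and at the autosomal centromere ends. Members, lists and rules were chosen with earlier results of these data known. Alternatives covered bin size, minimum values, averaging, scaling, the length of the ends and the calling of regions. The scripts were tested on simulated data. Python 3.11.15, numpy 2.4.6, scipy 1.17.1 and matplotlib 3.10.9 were used. No sequence is shown, as none of release 1 was used here.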

Additional observations from a re-analysis of the deposited data

Results flagged for a closer look

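On chromosome 4 and at 2 of the 4 autosomal centromere ends, MSL1 and MSL2 lay on opposite sides of the median of the autosomal arms. On chromosome 4 MSL1 was 0.083 above the arms and MSL2 was at -0.033. At the centromere end of 2L MSL1 was 0.019 above the arms and MSL2 was at -0.013, and at the centromere end of 2R MSL1 was at -0.032 and MSL2 at 0.032. With 1 library per antibody these differences were not tested. Opposite sides were also common along the arms themselves. They were seen in 31 of the 93 steps of 1 Mb, and on 3L without its centromere end MSL1 was at 0.023 and MSL2 at -0.014. The values are within the range of the 1 Mb steps, which ran from -0.24 to 0.17 in MSL1 and from -0.13 to 0.13 in MSL2.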

How the results depend on the processing

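With no replicates, a value was counted as moved when it changed by more than 1.5 times. Of 86 values under alternatives, 75 stayed within 1.5 times, 11 moved and none changed sign. The excess of MSL1 over MSL2 on X was 0.28 with 10 or more shared values per bin and 0.096 over every position of each file by itself, where X lay 0.35 above the arms in MSL1. Divided by the SD of each library on the arms, MSL1 minus MSL2 was 1.52 SD on X, 0.52 SD on chromosome 4 and -0.13 SD at the autosomal centromere ends. With ends of 1 Mb the last was -0.015 on the log2 scale. The share of X bins past a difference of 1 was 14.0%. Requiring overlap of 50 percent of a region left 21.7% of the MSL1 regions on X with an MSL2 region. With cutoffs from X alone, 27.6% of 58 MSL1 regions and 48.4% of 31 MSL2 regions overlapped. The correlation on X ranged from 0.68 to 0.86 and that on the arms from 0.51 to 0.56. No paired analysis was possible because each antibody had 1 library and no test was made. Depth was unknown, so counting error could not be separated from differences between the libraries. Values in bins hold only for the positions both files report, which on X are few.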
